A study of Mus musculus with 15 samples.

Results

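Expression of 46 genes of glycolysis, the pentose phosphate pathway, pyruvate handling and glycogen was followed in whole mouse ovaries. The members were genes chosen from these pathways by symbol. Each had to have 10 or more scaled reads (defined below) in 5 or more of the 15 libraries. All 46 met that condition, as did 17569 of the 24656 genes listed. The members are not the whole of these pathways: 48 of 65 other genes listed from them also met it and are described separately. Beyond this filter on level, the members were chosen with earlier results of these data known. A further row of the table also carries the symbol Aldoa, stayed between 1.03 and 11.9 scaled reads and was not used.

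The ovaries came from UM-HET3 mice, a stock bred from several inbred strains so that no animal shares its full genotype with another. Mice were drawn by lot into a canagliflozin arm and 2 control arms when 6 months old, and each arm is represented by 5 libraries. Canagliflozin mice took the drug from 6 months until 12 months of age. One control arm was 12 months old as well, and the other was 6 months old. Canagliflozin inhibits SGLT2, the kidney transporter that recovers filtered glucose. Each library held polyadenylated RNA of 1 ovary of 1 mouse. The labels name the RNA extraction for the 12-month groups and give none for the 6-month group. They state no dose, estrous stage or sequencing batch.

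The deposited value is a gene's reads divided by 1 size factor per library, called scaled reads below. Recovered depth was 8.47 to 13.0 M reads in canagliflozin libraries, 11.3 to 13.1 M in 12-month controls and 11.8 to 13.6 M in 6-month controls. The lowest member value, that of Aldoc in a 12-month control, rested on 38 reads. Members together took 0.586 ± 0.0338% of reads after canagliflozin, 0.572 ± 0.0591% in 12-month controls and 0.608 ± 0.0518% in 6-month controls (mean ± SD, n = 5 each). Markers of luteal, granulosa, theca and oocyte cells were above 0 in every library. Fold changes are log2 differences of value + 1 from 1 limma fit over all 15 libraries. A gene is called when its Benjamini-Hochberg adjusted p over all genes tested is under 0.05.

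Glycolysis breaks glucose down to pyruvate, which either becomes lactate in the cytosol or enters the mitochondrion for oxidation by pyruvate dehydrogenase. Glucose 6-phosphate can leave this route for the pentose phosphate pathway, which yields NADPH and ribose, or for storage as glycogen. In the ovary, granulosa cells are known for glycolysis and for passing pyruvate to the oocyte, which uses glucose poorly, and steroid-making cells draw on NADPH.

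Counting only reads listed under each member itself, Aldoa, the main aldolase, had the highest level per exon length, at 5857 scaled reads per kb over all 15 libraries. It was followed by the pyruvate kinase gene Pkm at 3572, the phosphoglycerate mutase gene Pgam1 at 2194 and the heart-type lactate dehydrogenase gene Ldhb at 2118 per kb. At the low end stood the glycogen branching enzyme gene Gbe1 at 38.5 and the brain-type aldolase gene Aldoc at 51.2 per kb. Of the hexokinases, Hk1 had 182 and Hk2 105 per kb, and of the phosphofructokinases Pfkm had 319, Pfkl 312 and Pfkp 139.6 per kb. Pygb, the brain-type glycogen phosphorylase, had 375 per kb and Pygl, the liver type, 59.1 per kb. The order depends on near-identical copies of some members, described below: with their reads added, Gapdh had 8469 per kb, against 1964 alone, and stood above Aldoa at 6039.

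**Figure D1:**
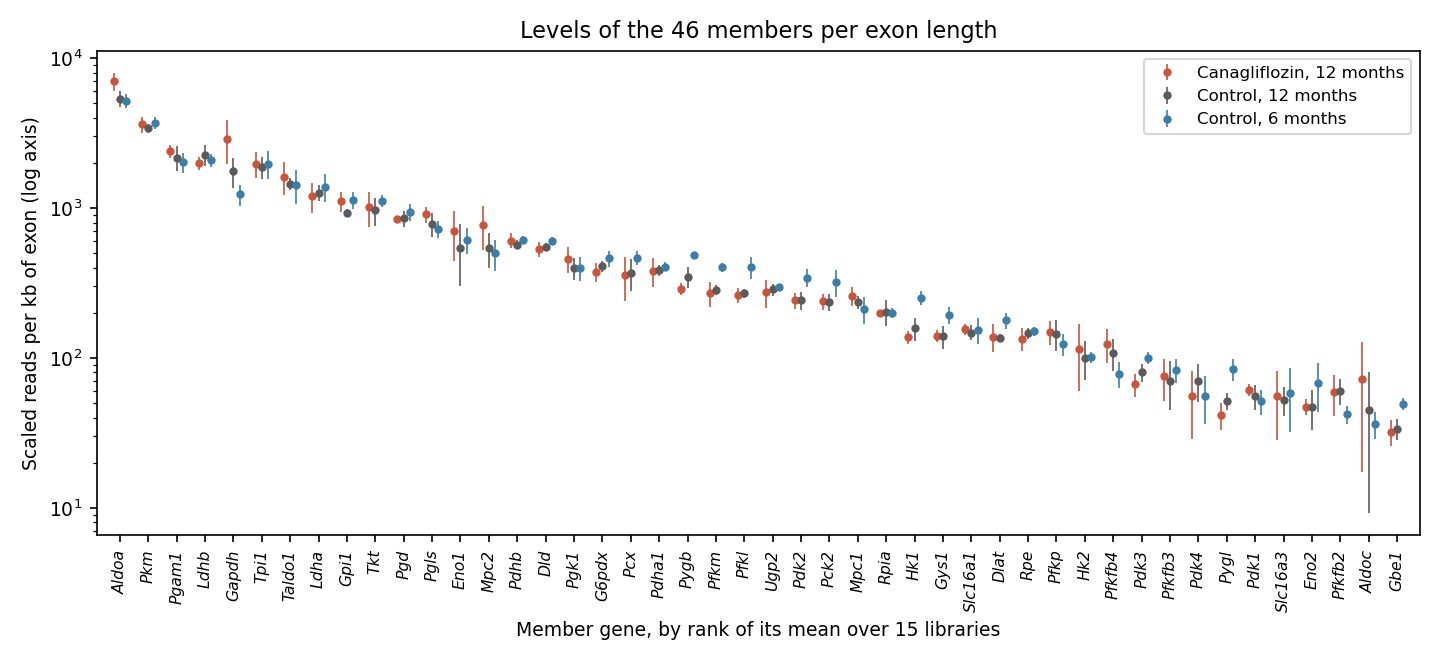
Scaled reads per kb of exon for the 46 members (log axis), ordered by their mean over 15 libraries, as group mean ± SD of 5 libraries in canagliflozin, 12-month control and 6-month control ovaries. By reads listed under the member itself, Aldoa is highest at 5857 and Gbe1 lowest at 38.5 per kb over all libraries; with near-identical copies added, Gapdh at 8469 would stand above Aldoa.

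The comparison of 12-month with 6-month controls asks which of these genes differed between the 6-month and 12-month groups. The labels give no RNA extraction for the 6-month group and state no sequencing batch. A difference in handling between the groups thus cannot be told apart from one of age, and its part was not tested. The words fell, rose and with age refer below to this comparison of groups. Of the 46 members, 8 fell and 0 rose: the hexokinase Hk1, the phosphofructokinases Pfkl and Pfkm, the pyruvate dehydrogenase kinase Pdk2, and the glycogen enzymes Gys1, Gbe1, Pygb and Pygl. These 8 of 46 are 17.4% of the members, where 12.4% of all genes tested were called, 7.01% lower and 5.4% higher. The 8 fell to between 0.615 and 0.715 times the level of the 6-month controls. In whole ovaries, fewer cells of a type and less RNA per cell cannot be told apart. Over all 46 members the log2 fold change was negative in 31 and positive in 15 with a median of -0.09, and the median of all genes tested was 0.00. Leaving out single libraries moved the median of the members between -0.16 (without 6-month control replicate 4) and -0.053 (without 6-month control replicate 3), and to -0.14 without 12-month control replicate 3. Groups did not overlap for 9 members, all lower in 12-month controls, where 8.07% of all genes were lower and 5.63% higher without overlap.

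**Figure D2:**
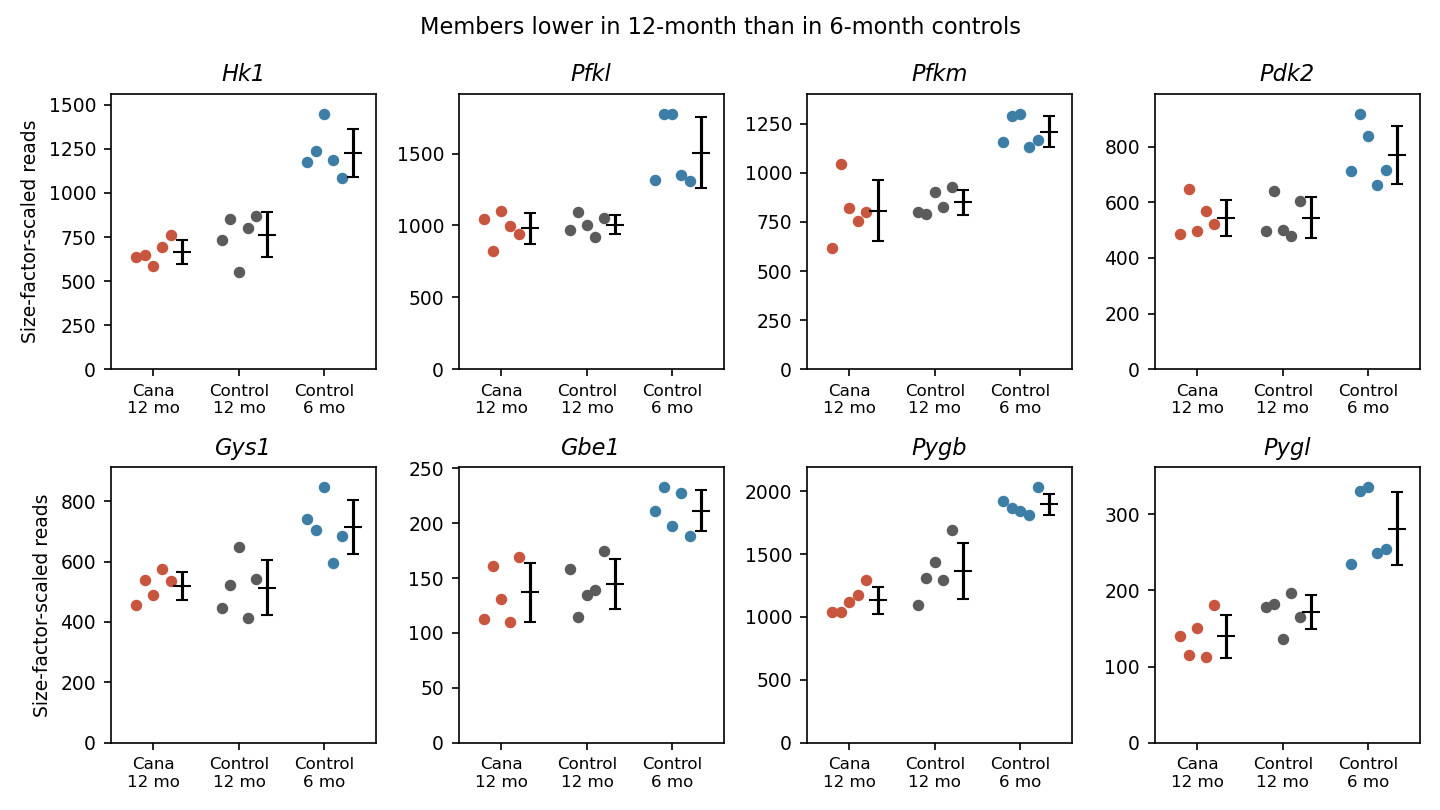
Scaled reads of the 8 members called lower in 12-month than in 6-month controls, 1 point per library, with the group mean ± SD beside the points. The 12-month libraries of either treatment lie below the 6-month controls, apart from 1 12-month control for Gys1.

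Glycogen genes were the step with the most calls, 4 of 5. Glycogen synthase, encoded in tissues other than liver by Gys1, adds glucose to the chain and the branching enzyme Gbe1 makes its branches. The phosphorylases Pygb and Pygl release glucose 1-phosphate from it, and Ugp2 makes the UDP-glucose that synthase uses. The promoters of the 4 genes called are shown because these genes of 1 pathway fell together. They run from 250 bases before to 50 after the RefSeq start site on GRCm38.p6, 5′ to 3′, and capitals mark GGGCGG, the GC box, and ACGTG, the core recognised by hypoxia-inducible factors, on either strand.
Gys1 (chr7:45434589-45434888, plus strand): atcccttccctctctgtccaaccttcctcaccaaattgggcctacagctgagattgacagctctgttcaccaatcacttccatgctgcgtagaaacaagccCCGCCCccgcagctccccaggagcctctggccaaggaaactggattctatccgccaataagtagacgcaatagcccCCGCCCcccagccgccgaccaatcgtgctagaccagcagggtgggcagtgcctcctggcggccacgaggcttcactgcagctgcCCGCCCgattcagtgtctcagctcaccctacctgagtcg
Gbe1 (chr16:70313699-70313998, plus strand): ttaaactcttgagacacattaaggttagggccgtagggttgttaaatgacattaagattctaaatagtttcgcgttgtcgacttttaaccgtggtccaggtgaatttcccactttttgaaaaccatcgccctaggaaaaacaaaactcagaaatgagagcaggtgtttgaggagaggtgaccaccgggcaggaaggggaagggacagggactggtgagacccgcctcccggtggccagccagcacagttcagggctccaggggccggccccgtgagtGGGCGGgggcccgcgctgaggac
Pygb (chr2:150786546-150786845, plus strand): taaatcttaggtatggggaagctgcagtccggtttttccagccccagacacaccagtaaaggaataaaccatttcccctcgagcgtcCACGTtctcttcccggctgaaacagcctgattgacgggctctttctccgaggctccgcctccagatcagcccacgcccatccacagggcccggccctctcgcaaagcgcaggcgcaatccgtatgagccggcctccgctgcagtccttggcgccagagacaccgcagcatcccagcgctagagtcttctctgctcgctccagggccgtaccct
Pygl (chr12:70227634-70227933, minus strand): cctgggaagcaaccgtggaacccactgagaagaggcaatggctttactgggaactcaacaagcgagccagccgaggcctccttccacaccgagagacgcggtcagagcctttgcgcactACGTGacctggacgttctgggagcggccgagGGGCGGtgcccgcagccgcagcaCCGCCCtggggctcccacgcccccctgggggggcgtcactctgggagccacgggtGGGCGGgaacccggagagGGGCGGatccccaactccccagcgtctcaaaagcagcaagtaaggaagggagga
GGGCGG occurred 3 times in the Gys1 promoter, 1 time in that of Gbe1, 4 times in that of Pygl and not in that of Pygb. ACGTG occurred 1 time each in the Pygb and Pygl promoters. The table holds promoters of all 46 members, 66 in number. Of all 32851 promoters in the table, 35.7% held GGGCGG and 19.6% held ACGTG on either strand. By gene, GGGCGG was in a promoter of 36 members (78.3%) and of 38.2% of all 27025 genes in the table, and ACGTG in a promoter of 22 members (47.8%) and of 21.8% of all genes. These shares are of unlike sets, since the 27025 genes were not filtered by level in these ovaries. Members also had 66 promoters for 46 genes, against 32851 for 27025. ACGTG also lies inside CACGTG, the E-box, which 7 members held. Of the 8 members that fell, 5 held ACGTG and 4 held GGGCGG. These are letter matches, with no measurement of binding.

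Pygl had 139.9, 115, 151, 112 and 181 scaled reads in canagliflozin ovaries, 179, 182, 137, 196 and 165 in 12-month controls and 235, 329.8, 335, 249 and 255 in 6-month controls. Every 12-month library, treated or not, lay below every 6-month control. The fall with age was 0.70 on the log2 scale (SE 0.15, limma adjusted p = 0.00764). Pygb had 1039, 1038, 1119.8, 1176 and 1293 scaled reads in canagliflozin ovaries, 1096, 1313, 1434, 1292 and 1692 in 12-month controls and 1924, 1869, 1841, 1810.1 and 2029 in 6-month controls. The 6-month controls again stood above all other libraries, and 2 canagliflozin libraries lay below all 12-month controls with the other 3 inside their range. With age Pygb fell by 0.49 on the log2 scale (SE 0.10, limma adjusted p = 0.00591).

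Gys1 had 455, 539, 488, 574 and 535 scaled reads in canagliflozin ovaries, 446, 521, 648, 412 and 541 in 12-month controls and 740.3, 704, 845, 595 and 686 in 6-month controls. One 12-month control, replicate 3, exceeded the lowest 6-month control, so that the age groups overlapped by 1 library on each side. Its fall was 0.48 on the log2 scale (SE 0.12, limma adjusted p = 0.0157). Gbe1 had 113, 161, 131, 110.0 and 169 scaled reads in canagliflozin ovaries, 158, 114, 135, 139 and 175 in 12-month controls and 211, 233, 198, 227 and 188 in 6-month controls. All 12-month libraries of either treatment were below all 6-month controls. Gbe1 fell by 0.56 on the log2 scale (SE 0.15, limma adjusted p = 0.0197). Ugp2 averaged 785 ± 165 after canagliflozin, 824 ± 74.7 in 12-month controls and 850.3 ± 47.0 in 6-month controls (SD, n = 5 each) and was not called (age log2 fold change -0.05, SE 0.12, limma adjusted p = 0.826). Removing length and GC trends from each library reduced the fall of Gys1 to 0.28 (log2 fold change -0.28, limma adjusted p = 0.153) and that of Pygb to 0.29 (log2 fold change -0.29, limma adjusted p = 0.0677), which ended both calls. Leaving out 6-month control replicate 2 ended the call of Gbe1 at a log2 fold change of -0.52 (limma adjusted p = 0.0544). Over 28 alternatives the adjusted p ran from 0.00413 to 0.153 for Gys1, from 0.000333 to 0.0677 for Pygb and from 0.00351 to 0.0544 for Gbe1.

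The summed level of the 5 glycogen members was 2399 to 3024 in canagliflozin ovaries, 2691 to 3447 in 12-month controls and 3777 to 4101 in 6-month controls. The log2 ratio of Pygb to Pygl, which does not depend on the size factor, ranged from 2.83 to 3.38 after canagliflozin, from 2.61 to 3.38 in 12-month controls and from 2.45 to 3.03 in 6-month controls. The 3 ranges of that ratio overlapped, while both phosphorylases were lower with age.

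Entry of glucose into the pathway and the phosphofructokinase step held 3 of the 8 calls, out of 6 members. Hk1, which phosphorylates glucose and sits on the outer mitochondrial membrane, had 639, 647, 587, 694 and 764 scaled reads in canagliflozin ovaries, 735, 851, 553, 804 and 872 in 12-month controls and 1177, 1239, 1448, 1189 and 1084 in 6-month controls. No 12-month library reached the lowest 6-month control. Hk1 fell by 0.70 on the log2 scale with age (SE 0.12, limma adjusted p = 0.0018), the smallest adjusted p of any member. Hk2, the insulin-responsive isoform in muscle and fat, averaged 642 ± 304 after canagliflozin, 563 ± 166 in 12-month controls and 567 ± 45.0 in 6-month controls (SD, n = 5 each). Its difference with age was -0.05 (SE 0.25, limma adjusted p = 0.926). The log2 ratio of Hk2 to Hk1 was -0.80 to 0.67 after canagliflozin, -1.10 to 0.19 in 12-month controls and -1.34 to -0.83 in 6-month controls.

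Phosphofructokinase, the committed step of glycolysis, is built from muscle (Pfkm), liver (Pfkl) and platelet (Pfkp) subunits. Pfkl had 1048, 821, 1102, 994 and 938 scaled reads in canagliflozin ovaries, 967, 1091, 1005, 917 and 1052 in 12-month controls and 1316, 1772, 1776, 1349 and 1311 in 6-month controls. Replicates 2 and 3 of the 6-month controls were highest, and all 5 were above every 12-month library. Pfkl fell by 0.57 with age (log2, SE 0.11, limma adjusted p = 0.00352). It was called in all 28 alternatives, with a log2 fold change of -0.36 under length and GC correction, where the adjusted p was highest (0.0485, the lowest being 3.8e-05). Pfkm had 616, 1046, 821, 754 and 801 scaled reads in canagliflozin ovaries, 801, 792, 903, 825 and 930.0 in 12-month controls and 1158, 1286, 1299, 1132 and 1167 in 6-month controls. Again no 12-month library reached a 6-month control. Pfkm fell by 0.51 (log2, SE 0.11, limma adjusted p = 0.0076), a call that correction for length and GC content ended (log2 fold change -0.35, limma adjusted p = 0.0586, the highest of 28 alternatives, the lowest being 0.000389). Pfkp had a positive age difference of 0.22 (SE 0.16, limma adjusted p = 0.427). The log2 ratio of Pfkp to Pfkm was -0.60 to -0.08 after canagliflozin, -0.72 to -0.07 in 12-month controls and -1.43 to -0.86 in 6-month controls, so that the age groups did not overlap in it. Gpi1, which converts glucose 6-phosphate to fructose 6-phosphate, was lower without overlap in 12-month controls (2682 ± 158) than in 6-month controls (3262 ± 411; SD, n = 5 each) but was not called (log2 fold change -0.28, SE 0.11, limma adjusted p = 0.118).

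The PFKFB enzymes set the level of fructose 2,6-bisphosphate, the activator of phosphofructokinase. Pfkfb2 had 224, 451, 245, 289 and 277 scaled reads in canagliflozin ovaries, 285, 276, 238, 322 and 393 in 12-month controls and 248, 236, 192, 204 and 179 in 6-month controls. The age groups overlapped, and the age difference of 0.50 (SE 0.18) missed the threshold (limma adjusted p = 0.0738). It passed in 4 of 28 alternatives, whose adjusted p ran from 0.015 to 0.160. Pfkfb4 had a like difference of 0.45 (SE 0.19, limma adjusted p = 0.147), and Pfkfb3 one of -0.30 (SE 0.24, limma adjusted p = 0.461).

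In lower glycolysis, 0 of 9 members were called with age. Gapdh, the NADH-forming dehydrogenase that is often used as a reference gene, had an age difference of 0.50 (SE 0.21, limma adjusted p = 0.134). It was called higher in 2 of 28 alternatives, with only the groups compared (limma adjusted p = 0.0471) and with the luteal covariate (0.0179), and its highest adjusted p was 0.546. The neuron-type enolase Eno2 had -0.50 (SE 0.23, limma adjusted p = 0.166). Pgk1, phosphoglycerate kinase, and Pkm differed by 0.01 (SE 0.15) and -0.12 (SE 0.10) with age, limma adjusted p = 0.989 and 0.486. Lactate dehydrogenases and the monocarboxylate carriers Slc16a1 and Slc16a3 also gave 0 calls of 4, with age differences from -0.11 to 0.10. The log2 ratio of Ldha to Ldhb was -0.45 to 0.05 after canagliflozin, -0.46 to -0.11 in 12-month controls and -0.55 to 0.30 in 6-month controls, with overlap throughout.

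Pyruvate handling held the remaining call. Pdk2, a kinase that switches pyruvate dehydrogenase off, had 484, 647, 496, 568 and 521 scaled reads in canagliflozin ovaries, 496, 641, 501, 478 and 606 in 12-month controls and 713, 918, 839, 661 and 717 in 6-month controls. Each 6-month control was above each 12-month library, if narrowly for replicate 2 of either 12-month group. Pdk2 fell by 0.50 with age (log2, SE 0.12, limma adjusted p = 0.0105). Its relatives were not called: Pdk3 had -0.32 (SE 0.14, limma adjusted p = 0.140), Pdk4, the fasting-induced kinase, 0.36 (SE 0.31, limma adjusted p = 0.487) and Pdk1, a hypoxia-inducible kinase, 0.11 (SE 0.14, limma adjusted p = 0.672). The log2 ratio of Pdk4 to Pdk2 was -2.40 to -0.69 after canagliflozin, -1.76 to -0.84 in 12-month controls and -2.81 to -1.20 in 6-month controls.

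Dlat, the E2 core of pyruvate dehydrogenase, had 478, 654, 519, 434 and 714 scaled reads in canagliflozin ovaries, 579, 520.0, 516, 564 and 571 in 12-month controls and 861, 644, 691, 657 and 751 in 6-month controls. Controls of the 2 ages did not overlap, yet the difference of -0.38 (SE 0.13) just missed the threshold (limma adjusted p = 0.0566, from 0.0145 to 0.139 over 28 alternatives, of which 8 called it). Pck2, which makes phosphoenolpyruvate in mitochondria, was close to it at -0.42 (SE 0.14, limma adjusted p = 0.0569, from 0.00814 to 0.235 over 28 alternatives, of which 6 called it). Pyruvate carboxylase, Pcx, averaged 1512 ± 486 after canagliflozin, 1563 ± 377 in 12-month controls and 1979 ± 220.4 in 6-month controls (SD, n = 5 each; age log2 fold change -0.36, SE 0.20, limma adjusted p = 0.271). The pyruvate carrier genes Mpc1 and Mpc2 and the dehydrogenase genes Pdha1, Pdhb and Dld had age differences from -0.13 to 0.17.

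No pentose phosphate member was called with age, of 7. Their log2 fold changes ran from -0.23 to 0.10 with a median of -0.04. G6pdx, the entry enzyme and a source of NADPH, averaged 999 ± 144 after canagliflozin, 1086 ± 89.2 in 12-month controls and 1223 ± 155 in 6-month controls (SD, n = 5 each; age log2 fold change -0.17, SE 0.11, limma adjusted p = 0.332). Pgd, the second NADPH-forming dehydrogenase, had -0.14 (SE 0.10, limma adjusted p = 0.395), and Rpia and Rpe, which interconvert pentose phosphates, had 0.01 and -0.04.

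**Figure D3:**
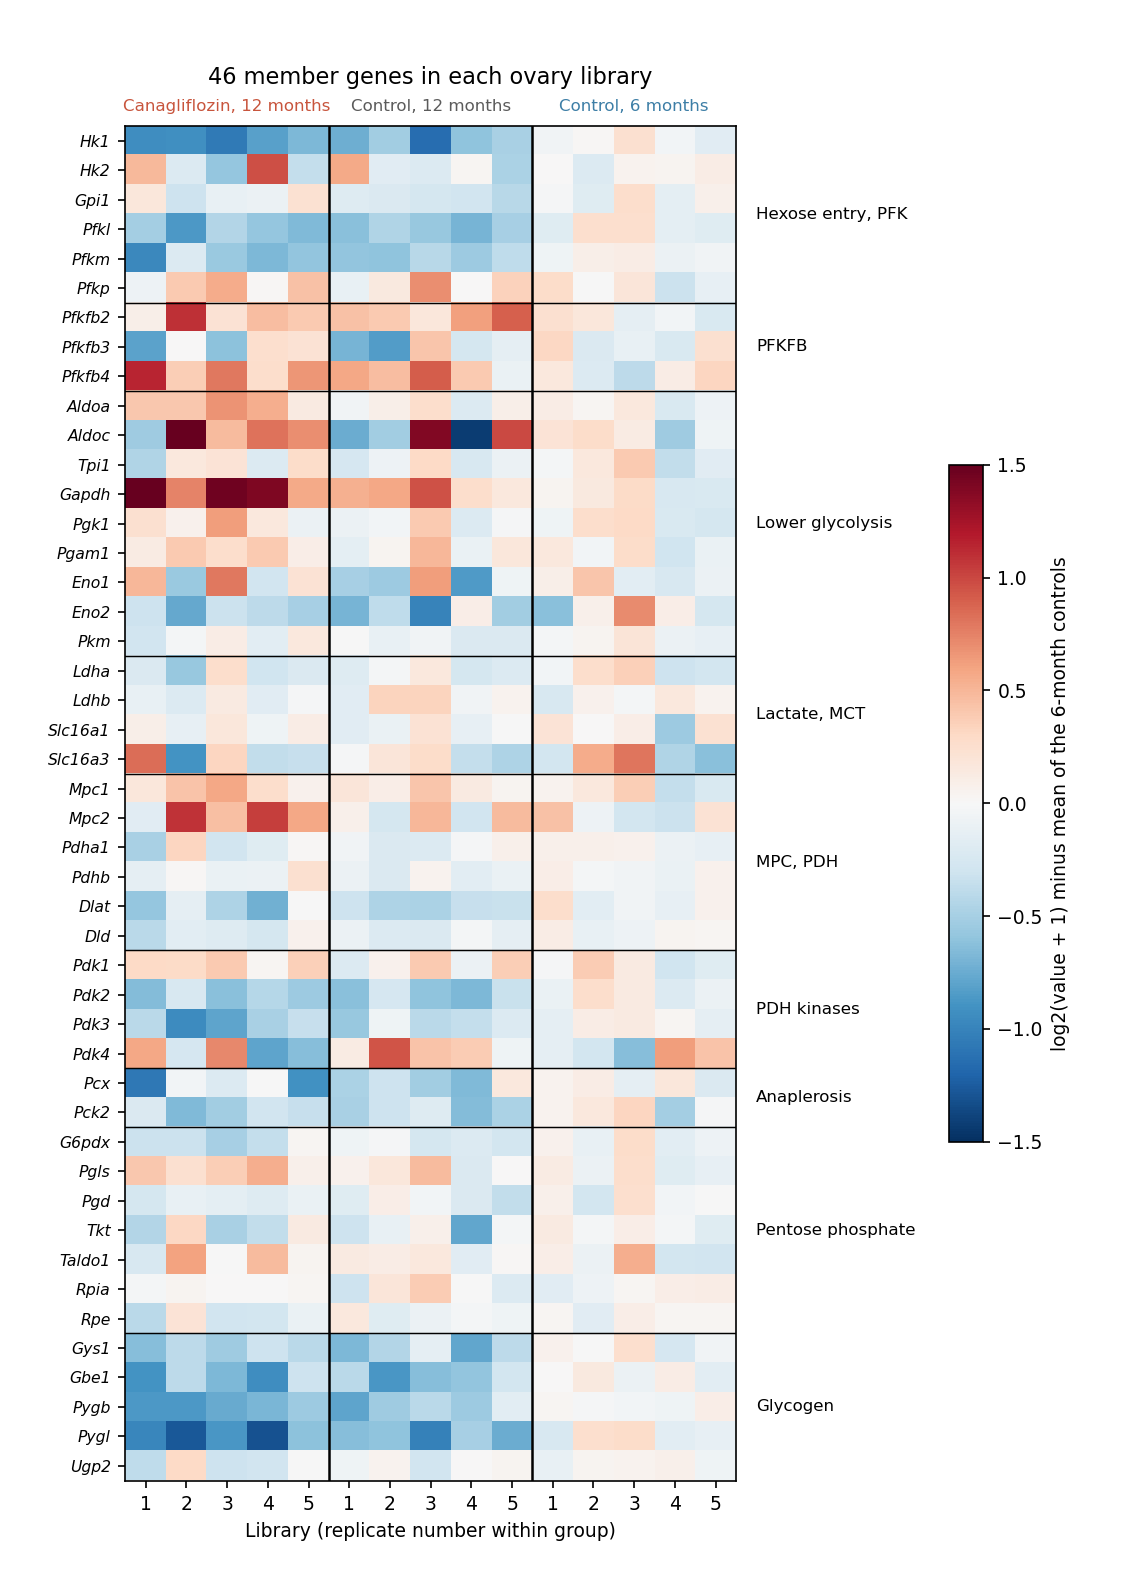
Each member (rows, grouped by step) in each library (columns), as log2(value + 1) minus its mean in the 6-month controls, with the colour scale ending at -1.5 and 1.5. The called glycogen members, Hk1, Pfkl, Pfkm and Pdk2 are blue in nearly all 12-month libraries, and Gapdh is reddest in canagliflozin libraries 1, 3 and 4.

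Other genes of these pathways and their regulators, listed from textbook membership, gave 7 calls with age among 61 tested. These were 10.4% of the other pathway genes and 15.4% of the regulators, near the 12.4% called of all genes tested. Of the other pathway genes, 48 of 65 passed the filter, and 3 rose and 2 fell. H6pd, the glucose 6-phosphate dehydrogenase of the endoplasmic reticulum, averaged 960.2 ± 105 after canagliflozin, 1055 ± 169.5 in 12-month controls and 1638 ± 221 in 6-month controls, and fell by 0.64 with age (limma adjusted p = 0.00339, SD over n = 5 each). Gaa, the lysosomal enzyme that degrades glycogen, fell by 0.53 (limma adjusted p = 0.0044). Phka1, a regulatory subunit of phosphorylase kinase, averaged 419 ± 17.3 after canagliflozin, 391 ± 44.0 in 12-month controls and 265 ± 36.2 in 6-month controls and rose by 0.56 (limma adjusted p = 0.00309). Pdpr, a regulator of pyruvate dehydrogenase phosphatase, rose by 1.09 (limma adjusted p = 0.0331), and Pck1, cytosolic phosphoenolpyruvate carboxykinase, by 1.63 at levels of 6.08 to 35.9 scaled reads in 12-month controls and 1.90 to 8.77 in 6-month controls (limma adjusted p = 0.0491). Of 13 regulators, Arnt, the partner of hypoxia-inducible factors, fell by 0.41 (limma adjusted p = 0.0211) and Myc by 0.79 (0.0445). H6pd, Gaa and Phka1 were called in all 28 alternatives, Arnt in 25, Pdpr in 22, Pck1 in 14 of 27 and Myc in 13. The fit without 6-month control replicate 2 called only H6pd, Gaa and Phka1, and 4 genes were called without replicate 1 or 3 of the 12-month controls, and also without replicate 5 of the 6-month controls.

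Some markers of other cell types also moved with age. Of 6 fat cell genes tested, 5 were higher in 12-month controls, where the 7-gene list summed to 296 to 1334 scaled reads, against 258 to 513 in 6-month controls; Adipoq, Retn, Cidec and Lep stood at 0 in at least 1 library. Lymphoid genes were higher for 3 of 6 and summed to 444 to 844 in 12-month controls, against 144 to 203 in 6-month controls. Macrophage genes were lower for 2 of 8 and summed to 1241 to 3078, against 2142 to 3611. Smooth muscle genes were lower for 1 of 6 and summed to 7009.6 to 14609, against 12820 to 19347. Granulosa genes were higher for 2 of 8, a luteal gene for 1 of 10, and an endothelial gene was lower, 1 of 8. The part of these in the fall of the 8 members was not tested. All 8 were also called with the luteal marker score as a covariate, but that fit held no score of the other cell types.

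Canagliflozin was compared with 12-month controls to ask whether the drug changed these genes at the same age. No member was called of 46, by limma or on recovered reads by edgeR's quasi-likelihood test and DESeq2, and 1 gene of 17569 was called by limma (0.00569%), 9 by edgeR and 63 by DESeq2. Without canagliflozin replicate 5 limma called 30 genes higher and 7 lower, without 12-month control replicate 3 it called 1 each way, and without any other single library it called 0, with 0 members among them each time. At an unadjusted limma p under 0.05 there were 4 members, Gapdh, Aldoa, Gpi1 and Pygb, where 9.2% of all genes lay under it. Log2 fold changes were positive in 25 and negative in 21, with a median of 0.02 against -0.00 for all genes, and 36 of 46 were under 0.25 in size. The sign of that median turned when single libraries were left out: it was -0.013 with 21 members positive without 12-month control replicate 4, also below 0 without 12-month control replicate 1, and 0.075 without 12-month control replicate 3, and 31 members were positive without canagliflozin replicate 1. No member separated the 2 groups without overlap, against 1.05% of all genes. In simulated reads for this comparison the limma fit called 26% of genes raised 1.5-fold, so changes of that size could be missed. That simulation held 136 calls, where the data held 1, and with fewer calls a smaller unadjusted p is needed. The 26% is thus no measure of the share recoverable in these data. The counts called with age and under canagliflozin do not rest on an equal unadjusted p either. The age and drug comparisons share the 12-month controls, so their values are given side by side and their signs are not set against each other.

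**Figure D4:**
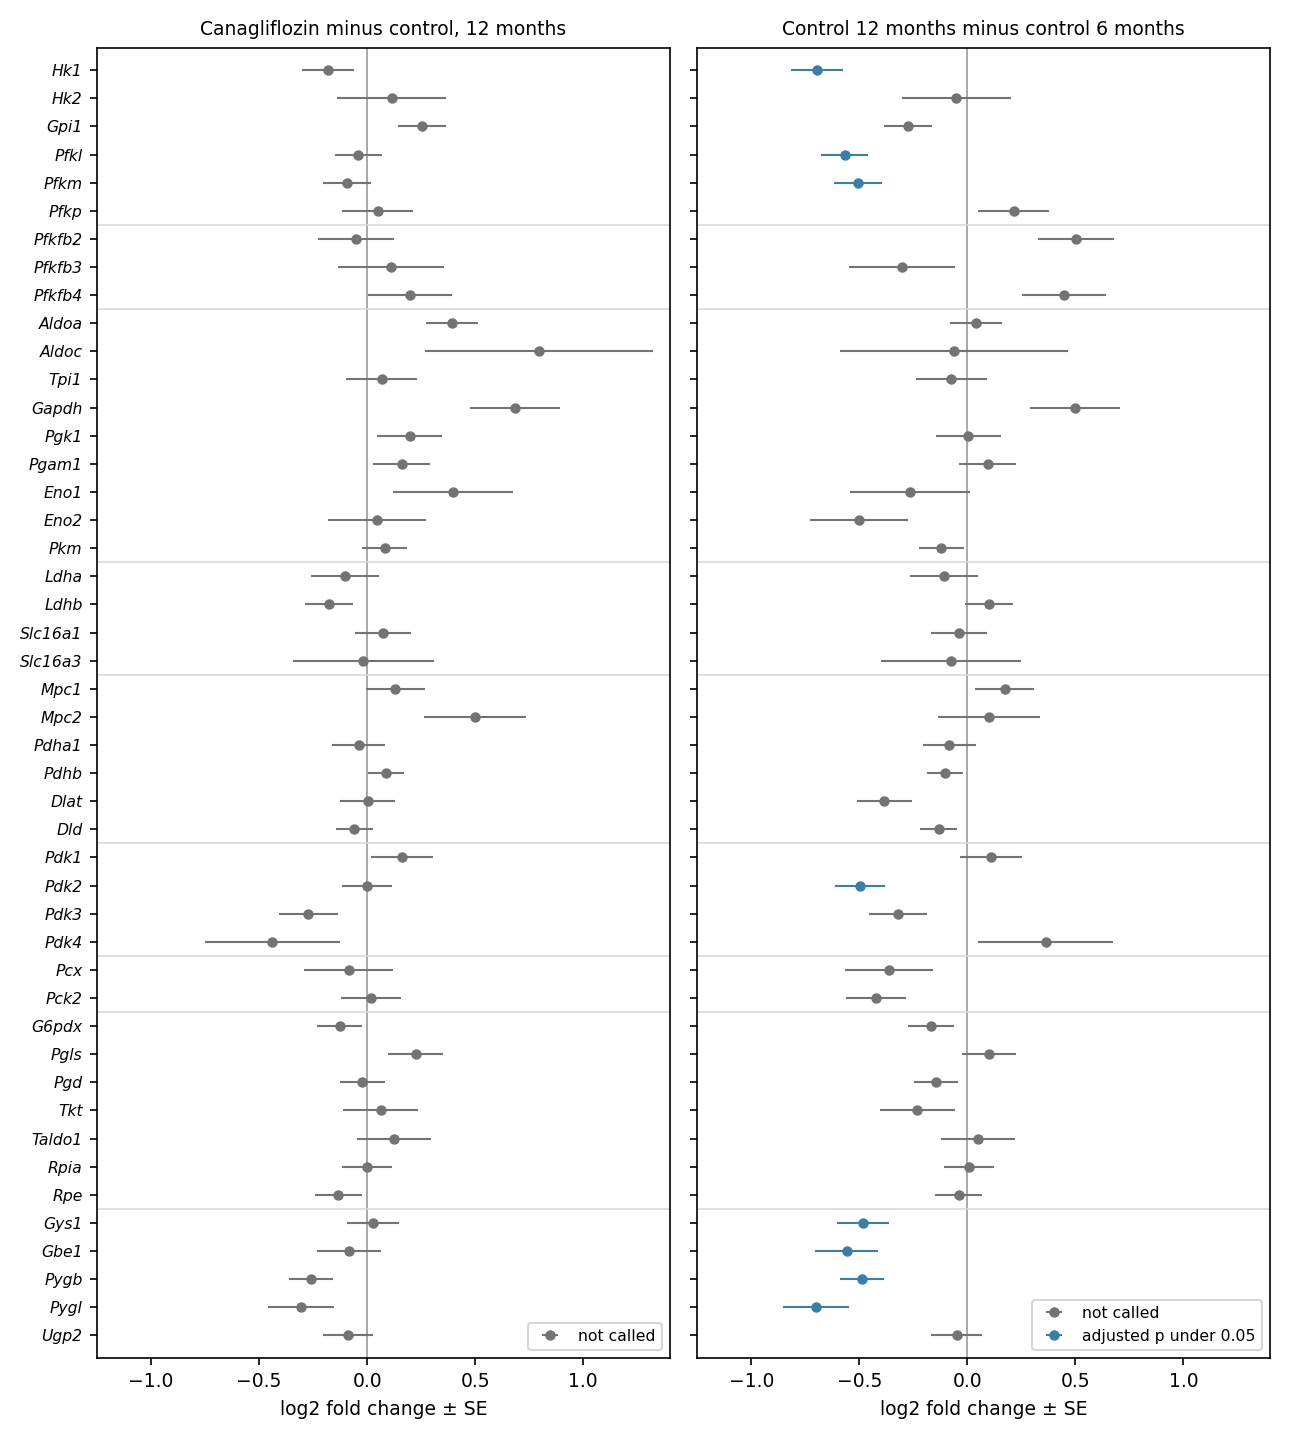
Log2 fold change ± SE of each member for canagliflozin minus control at 12 months (left) and 12-month minus 6-month controls (right), with genes in the order of their step. The 8 genes in blue on the right were called, and no gene was called on the left.

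Lower glycolysis members all had a positive log2 fold change under canagliflozin when near-identical copies were not counted. The 9 values ran from 0.04 for Eno2 to 0.80 for Aldoc with a median of 0.20, and 0 of 9 were called. With the copies added, 2 of the 9 turned negative, Eno1 (-0.02) and Pgk1 (-0.05). Tested genes of known transcript length were also split into 5 groups by it. Their median canagliflozin difference was 0.12 in the shortest group and -0.07 in the longest. The part of length in the shared sign of lower glycolysis was not tested. Aldoa had 12456, 12499.6, 15025, 13745 and 10341 scaled reads in canagliflozin ovaries, 9136, 10014, 11369, 8216 and 10035 in 12-month controls and 10236, 9669.6, 10513, 8075 and 8921 in 6-month controls. Canagliflozin replicate 5 lay within the range of the controls and the other 4 above it. The difference was 0.39 (SE 0.12, limma adjusted p = 0.462, unadjusted p = 0.00498), from 0.29 to 0.47 over 28 alternatives.

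Gapdh had 6055, 3053, 5038, 4831 and 2717 scaled reads in canagliflozin ovaries, 2638, 2728, 3539, 2186 and 2044 in 12-month controls and 1870.3, 2020.4, 2223, 1544 and 1561 in 6-month controls. Canagliflozin replicates 1, 3 and 4 were above every control, and replicates 2 and 5 were within the 12-month range. Its difference of 0.68 (SE 0.21) did not pass (limma adjusted p = 0.462, unadjusted p = 0.00474). Aldoc varied more within groups than between them, at 216 ± 164 after canagliflozin, 133 ± 106 in 12-month controls and 108 ± 22.3 in 6-month controls (SD, n = 5 each).

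Reads of several lower glycolysis genes can fall on near-identical copies elsewhere in the genome, and the labels do not say how the authors' counting shared them. In the GENCODE M21 transcripts, 17 of the 46 members had at least 1 listed gene with 90% identity or more over 50% or more of its length. Gapdh had 80 such copies, which held 76.8% of the summed level of gene and copies over all libraries. For Eno1, the main enolase, 7 copies held 72.4%, for Pgk1 4 copies held 61.0%, for Gpi1 1 copy held 26.0% and for Pgam1 3 copies held 21.9%. The most abundant Gapdh copies were the processed pseudogenes Gm13394 and Gm7336. A 120-base coding stretch of Gapdh (GRCm38, 5′ to 3′ of each transcript, spanning an intron in Gapdh) is shown beside both copies to show how little separates them, with capitals at the 1 base that differs.
Gapdh (chr6:125162957-125163174, minus strand): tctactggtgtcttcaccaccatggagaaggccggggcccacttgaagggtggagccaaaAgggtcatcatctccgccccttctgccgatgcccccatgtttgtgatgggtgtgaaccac
Gm13394 (chr2:28934205-28934324, minus strand): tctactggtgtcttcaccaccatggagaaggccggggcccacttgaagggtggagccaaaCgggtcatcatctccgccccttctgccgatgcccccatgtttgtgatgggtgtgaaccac
Gm7336 (chr7:51746982-51747101, plus strand): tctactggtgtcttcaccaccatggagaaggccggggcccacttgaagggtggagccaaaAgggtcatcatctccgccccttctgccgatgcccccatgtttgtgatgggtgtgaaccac
Counted from the first base of this stretch, Gm13394 carries A61C relative to Gapdh. Over the 999 coding bases that both copies cover, Gm13394 differed from Gapdh at 1 base and Gm7336 at 0.

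With its copies added, Gapdh summed to 14951 ± 1363 scaled reads in canagliflozin ovaries, 11952 ± 1087 in 12-month controls and 11082 ± 1441 in 6-month controls (SD, n = 5 each). The canagliflozin difference was then 0.32 (SE 0.11, limma adjusted p = 0.464) against 0.68 for the gene alone, and the age difference 0.11 (SE 0.11, limma adjusted p = 0.546) against 0.50. Eno1 summed to 5439.6 ± 827 after canagliflozin, 5472 ± 568 in 12-month controls and 6175 ± 1471 in 6-month controls, and its canagliflozin difference was -0.02 (SE 0.15) against 0.40 alone. Pgk1 summed to 1809 ± 270.3 after canagliflozin, 1868 ± 149.8 in 12-month controls and 2223 ± 352 in 6-month controls. Its canagliflozin difference turned to -0.05 (SE 0.12) against 0.20 alone. None of these 3 sums was called in either comparison. Of the 17 members summed with copies, Pygl alone was called with age (-0.68, limma adjusted p = 0.0086), and the 8 members that fell were called as before.

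**Figure D5:**
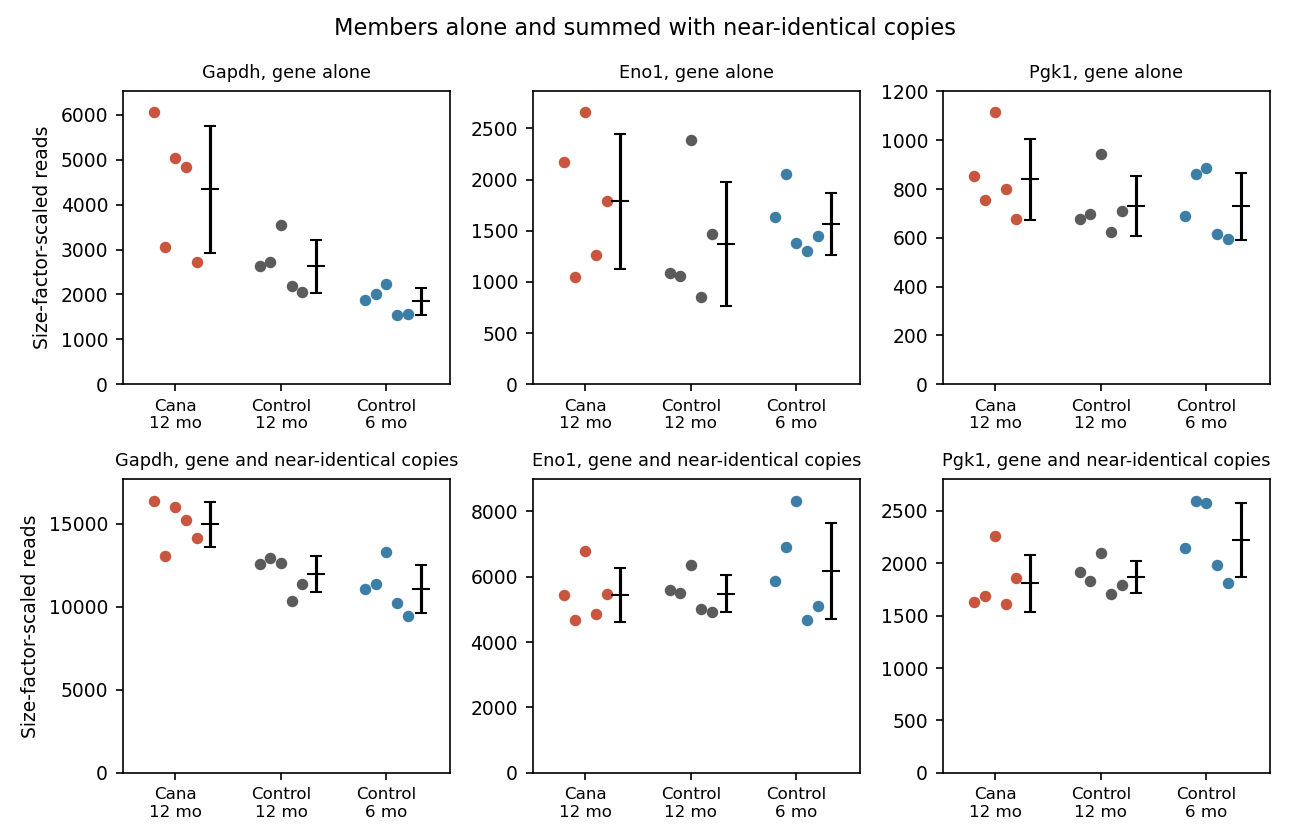
Scaled reads of Gapdh, Eno1 and Pgk1 alone (top) and summed with their near-identical copies (bottom), 1 point per library, with the group mean ± SD beside the points. Alone, Gapdh averages 4339 after canagliflozin and 2627 in 12-month controls, and summed 14951 and 11952.

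Outside lower glycolysis, Gpi1 and Pygb were the members with an unadjusted limma p under 0.05. Gpi1 had 3632, 2612, 3004, 3047 and 3813 scaled reads in canagliflozin ovaries, 2825, 2792, 2704, 2662 and 2424 in 12-month controls and 3207, 2864, 3881, 2937 and 3418 in 6-month controls. Of the 5 canagliflozin libraries, 4 were above all 12-month controls and 1 was among them, for a difference of 0.25 (SE 0.11, limma adjusted p = 0.523, unadjusted p = 0.0364). Pygb, whose values are given above, had -0.26 (SE 0.10, limma adjusted p = 0.482, unadjusted p = 0.0217) and Pygl -0.31 (SE 0.15, limma adjusted p = 0.557). Gys1 and Gbe1 had 0.03 (SE 0.12) and -0.08 (SE 0.15), limma adjusted p = 0.956 and 0.868. Mpc2, a subunit of the mitochondrial pyruvate carrier, had 0.50 (SE 0.24, limma adjusted p = 0.543) with 447 to 1062 scaled reads after canagliflozin and 411 to 706 in 12-month controls. Pdk4 had -0.44 (SE 0.31, limma adjusted p = 0.669), Pdk3 -0.27 (SE 0.14, limma adjusted p = 0.557) and Pdk2 -0.00 (SE 0.12, limma adjusted p = 0.999). Ldhb had -0.18 (SE 0.11, limma adjusted p = 0.635), and the pentose phosphate genes Pgls and Rpe had 0.22 (SE 0.13) and -0.13 (SE 0.11), limma adjusted p = 0.595 and 0.703.

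For each of the 8 members that fell with age, every canagliflozin library was also below every 6-month control. This was the case for 9 of all 46 members and for 10.4% of all genes tested, sets not first chosen for a fall. Since the 6-month controls took part in calling the 8, their order is a description without a test. The canagliflozin difference from 12-month controls of the 8 ran from -0.31 (Pygl) to 0.03 (Gys1).

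Of the other pathway genes and regulators, 0 of 61 were called under canagliflozin, with 4 at an unadjusted limma p under 0.05 and 0 called by edgeR and DESeq2. Prps1, which makes phosphoribosyl pyrophosphate from ribose 5-phosphate, had the smallest p: 164 ± 39.1 after canagliflozin, 225 ± 46.9 in 12-month controls and 309.8 ± 20.5 in 6-month controls (SD, n = 5 each; -0.47, SE 0.16, limma adjusted p = 0.462). Phkg2, the catalytic subunit of phosphorylase kinase, had 0.25 (SE 0.09, limma adjusted p = 0.481). No marker list gave a call under canagliflozin. Red cell genes had a median log2 fold change of 1.19 and summed to 1457 to 7446 after canagliflozin and 168 to 18099 in 12-month controls, and the 8 endothelial and 6 surface epithelium genes were all positive with medians of 0.26 and 0.53. The 6 smooth muscle and 8 macrophage genes were all negative, with medians of -0.28 and -0.34. Theca genes were negative for 5 of 6 with a median of -0.57 and summed to 11396 to 18204 after canagliflozin and 16342 to 32667 in 12-month controls. Oocyte genes were negative for 8 of 9 with a median of -0.36, and fat cell genes for 5 of 6 with a median of -0.50. Luteal genes were positive for 7 of 10 with a median of 0.20, and granulosa genes for 5 of 8 with a median of 0.07. Luteal genes summed to 150151 to 413713 after canagliflozin and 183882 to 317904 in 12-month controls. Granulosa genes summed to 29969 to 64225 and 30261 to 57513. The part of these cell types in the differences of Gapdh and Aldoa was not tested. Without canagliflozin replicate 2, the shallowest library, and 12-month control replicate 3, the highest in red cell genes, 0 members were called under canagliflozin and 10 with age.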

How the data were processed

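RNA of 15 ovaries was sequenced, 5 in each of 3 groups. The submitters' processing notes name Partek 11.0 and mm39; for aligner, counter, annotation release and normalization no source used here gives a name. The authors deposited a signal for every gene. Judged by its steps, it is the read number over a size factor of the library: every value was a whole number of reads within 0.1, although in 3 libraries a read was worth within 1% of 1, where whole values are no check. No 2 libraries of a group agreed within counting noise. Genes reaching 10 in 5 or more libraries were tested (7087 removed) with limma 3.58.1 in R 4.3.3 on log2(value + 1), with trend and robust variance, which understates changes of low genes; the design had named edgeR had the values been counts. edgeR 4.0.16 and DESeq2 1.42.0 on recovered reads were alternatives, as were TMM scaling, pseudocounts of 0.5 and 5, other filters, an adjusted p under 0.1, only the groups compared, a replicate block, a length and GC correction, a luteal covariate and each library left out. A fit without 2 libraries and one with near-identical copies summed (blastn 2.17.0) were added after seeing the data. The limma fit was tested on simulated reads. For the canagliflozin comparison it called 26% of 50 genes raised 1.5-fold and 68% of 50 raised 2-fold. For the age comparison it called 34% and 76%. The simulations held 136 calls for canagliflozin and 142 for age, where the data held 1 and 2179. The unadjusted p needed for a call depends on that number, so these shares do not carry over to the data.

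Members and lists were chosen with earlier results of these data known. Named were members called in either comparison, the 2 of each step with the smallest p in each, Gapdh, Pgk1 and Pkm, and of other pathway genes and regulators those called or, with none, the 2 with the smallest p. Other members were named to describe levels, paralogues or copies, after their values were seen. Exon lengths are from GENCODE M21 and promoters from RefSeq on GRCm38.p6, another build than the notes name, so no coordinates are given for the table's genes beyond the printed sequences. Whether counting used strand is not given, so overlapping antisense genes cannot be told apart. The labels state a depth far under the recovered one, which was not resolved. P-values measure the spread between mice.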

Additional observations from a re-analysis of the deposited data

Results flagged for a closer look

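Of 93 groups of 5 values (31 named members in 3 groups), 3 held a library flagged by its distance from the others. Its gap to the nearest of them, divided by the range of the 5 values, exceeded Dixon's 95% critical value for 5 samples (0.71). Chance alone flags about 1 in 20 groups. Pfkfb2 was 451 scaled reads in canagliflozin replicate 2, with the other 4 libraries between 224 and 289. Pgk1 was 942 in 12-month control replicate 3, with the others between 622 and 710.3. Rpe was 362 in 6-month control replicate 2, with the others between 416 and 437.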

How the results depend on the processing

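The number of members called under canagliflozin was 0 in every alternative run. With age it was 8, and ran from 7 to 11 over the alternatives, with all 8 kept except Gys1, Pfkm and Pygb under length and GC correction (7 called, of which Dlat and Dld were additional) and Gbe1 without 6-month control replicate 2. Leaving out each library gave 0 members under canagliflozin and 7 to 10 with age. Calls of other pathway genes and regulators with age, 7 in all, became 14 with the luteal covariate and 3 to 9 with each library left out; under canagliflozin they were 0. Fold changes that turned sign belonged to members that were not called. Under canagliflozin, Pfkfb3 (0.11) was -0.014 with the luteal covariate, Pgk1 (0.20) -0.054 summed with copies and Ldha (-0.10) 0.054 without canagliflozin replicate 2 and 12-month control replicate 3. With age, Pgk1 (0.01) was -0.035 under length and GC correction, -0.091 without those 2 libraries and -0.24 summed with copies, and Pkm (-0.12) was 0.013 under length and GC correction. With each library left out, Pfkfb3 ran from -0.021 to 0.29, Pcx from -0.20 to 0.070 and Pck2 from -0.039 to 0.082 under canagliflozin, and Pgk1 from -0.091 to 0.080 with age. The cause of these changes was not tested.

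Replicate numbers did not pair the libraries: correlations of same-numbered deviations ran from -0.30 to 0.25, and 2 of 15 were best with their own number. With the replicate block 0 members were called under canagliflozin and 8 with age, and 0 and 7 other genes. Depth limits little for members, none under 38 reads in a library.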

Other observations

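The share of the summed level held by near-identical copies was itself uneven between groups. For Gapdh it was 63.0 to 80.7% in canagliflozin ovaries, 72.0 to 82.0% in 12-month controls and 82.2 to 84.9% in 6-month controls. For Pgk1 the copies held 47.7 to 63.5% after canagliflozin, 55.1 to 64.7% in 12-month controls and 65.6 to 69.0% in 6-month controls. For Pgam1 they held 12.8 to 22.0% after canagliflozin, 15.2 to 24.0% in 12-month controls and 27.2 to 29.7% in 6-month controls. For these 3 genes every 6-month control was above every 12-month library. The part of age and of library handling in this order was not tested. Eno1 did not share this order, at 60.0 to 77.6% after canagliflozin, 62.5 to 82.9% in 12-month controls and 70.2 to 83.4% in 6-month controls. Of the copies, reads listed under Pgam1-ps2 fell with age by 0.52 on the log2 scale (limma adjusted p = 0.0395). Those listed under the Pgk1 copy Gm5537 fell by 0.45 (limma adjusted p = 0.027). Both copies are 100% identical to their member over 100% of their length, so reads within them cannot be assigned to copy or member. Summed with its copies, Pgam1 had an age difference of -0.05 (limma adjusted p = 0.825) and Pgk1 one of -0.24 (limma adjusted p = 0.20). The 2 most abundant Gapdh copies, Gm13394 and Gm7336, had age differences of -0.02 and 0.03 (limma adjusted p = 0.959 and 0.941).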
